A study of Homo sapiens with 18 samples.

Results

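KDM7A, PHF8 and PHF2 form the KDM7 family of histone demethylases, and their mRNA was followed in 18 RNA Seq libraries of LNCaP and C4-2 prostate cancer cells. The members were the 3 genes, of 60675 listed in the count files, whose Ensembl identifiers map to these symbols. LNCaP is an androgen-dependent prostate cancer line, and C4-2 is its androgen-independent derivative. Each line gave 3 libraries of cells with scrambled siRNA (siScr) and vehicle, 3 of siScr cells with the synthetic androgen R1881 (1 nM, 72 h), and 3 of cells with siRNA pools against both KDM1A and KDM7A and R1881 (1 nM, 72 h), called dual knockdown here. The cells of all groups were transfected (siRNA at 10 nM) and kept in medium without phenol red and with hormone-depleted serum. KDM1A and KDM7A were always targeted together in these libraries, so the part of each siRNA pool in a result cannot be told apart. Dual knockdown cells with vehicle were not analysed here, and every dual knockdown value is one with R1881.

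The KDM7 proteins pair a PHD finger, which binds histone H3 trimethylated at lysine 4 (H3K4me3) near active promoters, with a Jumonji C (JmjC) catalytic domain, which removes methyl groups from lysine using iron, oxygen and 2-oxoglutarate. The marks removed are mainly repressive, and the family is therefore known for co-activation of transcription. KDM7A, also named JHDM1D or KIAA1718, acts on dimethylated lysine 9 and lysine 27 of H3. PHF8 acts on mono- and dimethylated lysine 9 of H3 and on monomethylated lysine 20 of H4, and is known for roles in the cell cycle and in X-linked intellectual disability. PHF2 lacks one of the usual iron-binding residues and is known to act on lysine 9 of H3 once it is phosphorylated and bound to its partner ARID5B. The questions asked of the data were whether the 3 genes respond to androgen, how far KDM7A mRNA was lowered by its siRNA, and whether the untargeted paralogues moved when it was.

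In the GRCh38 annotation of the files, KDM7A (ENSG00000006459) lies on the minus strand at chr7:140084746-140177035, with 9430 bases of exon. PHF8 (ENSG00000172943) lies on the minus strand at chrX:53936676-54048958, with 9016 bases of exon. PHF2 (ENSG00000197724) lies on the plus strand at chr9:93576407-93679587, with 5569 bases of exon. No exon of the 3 genes overlapped an exon of another gene, so counts made without strand hold no reads shared with an annotated neighbour. KDM7A starts 226 bases from KDM7A-DT, a long noncoding RNA on the opposite strand, and the stretch between both starts is a shared promoter region. Sequence before the starts, from RefSeq (GRCh38.p14), is shown to set the 3 promoter regions side by side, 5′ to 3′ and without annotated exons of these genes. Capitals mark GC boxes, GGGCGG on either strand, which are sites of the Sp family of factors.

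KDM7A and KDM7A-DT, chr7:140177036-140177260, plus strand: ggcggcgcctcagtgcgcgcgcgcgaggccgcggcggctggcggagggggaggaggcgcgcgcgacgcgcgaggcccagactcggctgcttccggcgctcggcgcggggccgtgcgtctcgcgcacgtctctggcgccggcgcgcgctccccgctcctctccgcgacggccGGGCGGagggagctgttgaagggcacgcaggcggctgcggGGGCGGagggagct
PHF8, chrX:54044474-54044723, minus strand: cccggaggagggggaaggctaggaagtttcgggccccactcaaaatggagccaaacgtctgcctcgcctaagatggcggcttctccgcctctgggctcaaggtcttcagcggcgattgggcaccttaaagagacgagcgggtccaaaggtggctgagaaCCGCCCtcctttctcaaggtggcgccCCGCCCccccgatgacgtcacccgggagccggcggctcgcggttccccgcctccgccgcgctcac
PHF2, chr9:93576334-93576406, plus strand: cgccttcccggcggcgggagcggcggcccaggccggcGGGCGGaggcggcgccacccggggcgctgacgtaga

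The stretch between KDM7A and KDM7A-DT held 44 CpG in 225 bases, the PHF8 stretch 24 in 250 bases and the PHF2 stretch 14 in 73 bases. In windows of 250 bases before each RefSeq start, KDM7A had 50 CpG and PHF2 46, against a median of 11 over 35116 windows. PHF8 had 3 such windows, with 24, 6 and 1 CpG, and that with 24 is shown. It lies inside the span given above for PHF8, outside the annotated exons. GC boxes were found in the KDM7A window (1), the PHF2 window (4) and 1 of the PHF8 windows (2), and in 42.6% of all windows. A CCAAT box, searched on both strands, was found in that PHF8 window alone among the members, and in 32% of all windows. The single arm of the androgen response element, AGAACA on either strand, was in no window of the 3 genes, and in 12.4% of all windows. The full element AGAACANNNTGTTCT was in 1 of the 35116 windows and in none of these. The TATA box TATAAA (10.7% of all windows) and the E-box CACGTG (6.34%) were absent from them too. The KDM7A and PHF2 windows run into annotated exons of these genes. Of the PHF2 window, 73 bases with 14 CpG and 1 GC box lie before the exon. The motif matches describe the windows and say nothing of sites elsewhere in the genes.

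Total counts ranged from 3182604, in C4-2 vehicle replicate 3, to 20154243, and the next lowest was 10485096. Replicates differed by more than counting error, with a chi-square per gene of 2.56 to 18.6 between libraries of a group. C4-2 vehicle replicate 3 (18.6 and 18.3, against 5.41 between the other vehicle libraries) and C4-2 dual knockdown replicate 1 (17.4 and 15.3, against 3.58) stood apart from their groups. The methods call the replicates biological, and the tests here judge differences against the spread between these libraries. The 3 vehicle libraries of C4-2 carry that name in their titles but LNCaP in the field for the cell line. At 1130 genes that differed at least 4-fold between the lines with R1881, 89.8% to 91.2% of values in these libraries lay nearer to C4-2, against 12.5% to 14.2% in LNCaP vehicle libraries, and they were grouped by their titles. The luminal markers KRT8, KRT18, EPCAM, CDH1, HOXB13 and KLK3 were all present at a mean of 21.6 CPM or more in every siScr group. Of 11 markers of basal, neuroendocrine, stromal and immune cells, KRT5, TP63, CHGA and CD3E had means of at most 0.152 CPM in all 6 groups. The summed level of the 11 was 75.2 to 79.5 CPM with vehicle, 63.9 to 72.5 with R1881 and 68.5 to 76.2 under dual knockdown in LNCaP, and 51.3 to 63.6, 41.0 to 50.2 and 47.9 to 60.4 CPM in C4-2. With R1881, 3 of 6 tested markers rose and 2 fell in LNCaP, and 2 of 7 rose and 3 fell in C4-2. KRT14 rose from 0.0492 to 1.18 CPM and from 0.113 to 0.985 CPM, and VIM from 8.10 to 12.1 and from 1.70 to 4.55. COL1A1 fell from 16.7 to 8.65 and from 32.5 to 20.4 CPM. ACTA2 rose from 1.62 to 5.75 CPM in LNCaP and fell from 0.758 to 0.175 in C4-2. ENO2, at 13.0 to 49.2 CPM over the groups, fell in LNCaP, and SYP, at 1.14 to 2.85 CPM, passed in neither line. PTPRC, which marks leukocytes, fell in C4-2, from 1.75 to 3.21 CPM in the vehicle libraries to at most 0.184 CPM in any other library. Under dual knockdown none of these markers passed in LNCaP, and COL1A1 rose in C4-2, from 20.4 to 30.7 CPM. The part of these markers in the results was not tested. R1881 raised the androgen-induced genes KLK3, TMPRSS2 and FKBP5 by 13.0-fold, 17.6-fold and 18.9-fold in LNCaP and by 17.9-fold, 8.63-fold and 9.56-fold in C4-2. These are from a list of 11 genes for checking the androgen response. Of that list, 9 rose and 1 fell in LNCaP (23.5% and 23.2% of all genes). In C4-2, 8 rose and 3 fell (17.1% and 15.7% of all genes). KDM1A, the co-targeted demethylase, was 108 ± 4.45 CPM (SD, n = 3) in LNCaP with R1881 and 51.6 ± 2.86 under dual knockdown, and 142 ± 3.22 and 16.4 ± 3.03 in C4-2.

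All 3 members passed the filter on low counts in every comparison. Levels are given as counts per 1000000 counts (CPM) on edgeR's effective library sizes, and differences as log2 fold changes (log2FC) from edgeR's quasi-likelihood test. A gene passed with a Benjamini-Hochberg adjusted p under 0.05 over all genes tested, and was differentially expressed if it also changed at least 2-fold. Library values were also compared by a 2-sided exact permutation test, which cannot go below 0.1 with 3 libraries against 3. CPM measure mRNA per total mRNA, so fewer expressing cells and less mRNA per cell cannot be told apart.

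**Figure D1:**
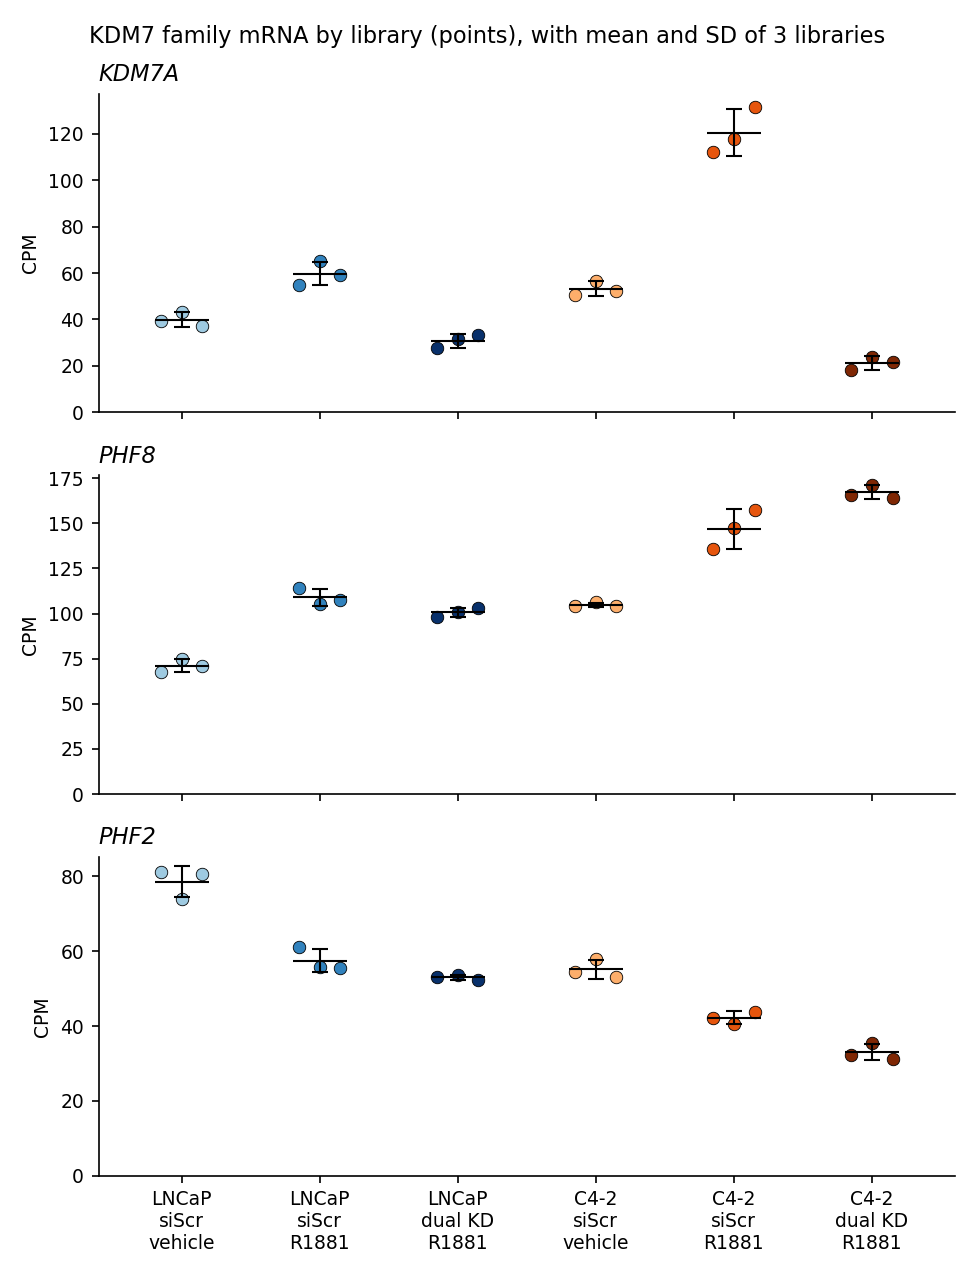
Normalised counts (CPM, y axis from 0) of KDM7A, PHF8 and PHF2 in the 6 groups (x axis). Points are libraries, and bars are the mean and SD of 3 libraries. KDM7A was highest in C4-2 with R1881 (112 to 132 CPM) and lowest under dual knockdown in C4-2 (18.2 to 23.9 CPM).

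KDM7A mRNA rose with R1881 in both lines, and more in C4-2. In LNCaP the vehicle libraries held 39.6, 43.4 and 37.0 CPM of KDM7A, and the R1881 libraries 55.0, 65.0 and 59.2 CPM. Every R1881 library lay above every vehicle library. The change was 1.47-fold (log2FC 0.56, SE 0.0865, adjusted p = 4.9e-05 by edgeR's quasi-likelihood test). In C4-2 the vehicle libraries held 50.7, 56.8 and 52.4 CPM, and the R1881 libraries 112, 118 and 132 CPM. The groups were again apart, and the change was 2.25-fold (log2FC 1.17, SE 0.106, edgeR adjusted p = 8.94e-07). KDM7A was therefore differentially expressed in C4-2, where 4.29% of 16965 genes rose at least 2-fold and passed, but stayed under that fold in LNCaP. In C4-2, 668 genes rose by more than KDM7A, and in LNCaP 2078 of 17162 did. The log2FC was larger in C4-2 than in LNCaP by 0.60 (95% interval 0.31 to 0.89, edgeR adjusted p = 0.00488 for the interaction). Of the 3 members only KDM7A passed this test of the difference, which 14% of 18684 genes passed. Without C4-2 vehicle replicate 3, which had 180 counts of KDM7A, the log2FC in C4-2 was 1.17 and the difference between the lines 0.59.

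PHF8 also rose with R1881 in both lines. In LNCaP it was 67.6, 75.1 and 70.9 CPM with vehicle and 114, 105 and 108 CPM with R1881. In C4-2 it was 104, 106 and 104 CPM with vehicle and 136, 147 and 157 CPM with R1881. The groups did not overlap in either line. The change was 1.51-fold in LNCaP (log2FC 0.60, SE 0.0631, edgeR adjusted p = 6.49e-07) and 1.40-fold in C4-2 (log2FC 0.48, SE 0.0766, edgeR adjusted p = 2.3e-04). The difference between the lines was −0.13 (95% interval −0.32 to 0.06, edgeR adjusted p = 0.406), so a stronger response in LNCaP by up to 0.32 on the log2 scale remains within the interval.

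PHF2 moved the other way. In LNCaP it was 81.2, 73.9 and 80.6 CPM with vehicle and 61.0, 55.7 and 55.5 CPM with R1881. In C4-2 it was 54.5, 57.9 and 53.0 CPM with vehicle and 42.2, 40.6 and 43.9 CPM with R1881. Every R1881 library lay below every vehicle library of its line. PHF2 fell to 72.3% of its vehicle level in LNCaP (log2FC −0.47, SE 0.0684, edgeR adjusted p = 2.72e-05) and to 76.1% in C4-2 (log2FC −0.39, SE 0.0867, edgeR adjusted p = 0.00291). The difference between the lines was 0.06 (95% interval −0.15 to 0.26, edgeR adjusted p = 0.779).

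All 3 members thus passed the test for R1881 in both lines, with KDM7A and PHF8 higher and PHF2 lower. Of all genes tested, 46.6% passed in LNCaP (23.5% higher and 23.2% lower) and 32.8% in C4-2 (17.1% higher and 15.7% lower). The libraries did not overlap for 53% of genes in LNCaP and 46.9% in C4-2. Pooled over all their GENCODE 29 transcripts, KDM7A has a GC content of 38.3%, PHF8 51.9% and PHF2 54.8%. With each library's trend with GC content removed, a step added after seeing the data, the log2FC for R1881 was 0.49 for KDM7A, 0.62 for PHF8 and −0.42 for PHF2 in LNCaP. In C4-2 it was 1.04, 0.53 and −0.30, and all 6 values still passed.

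**Figure D2:**
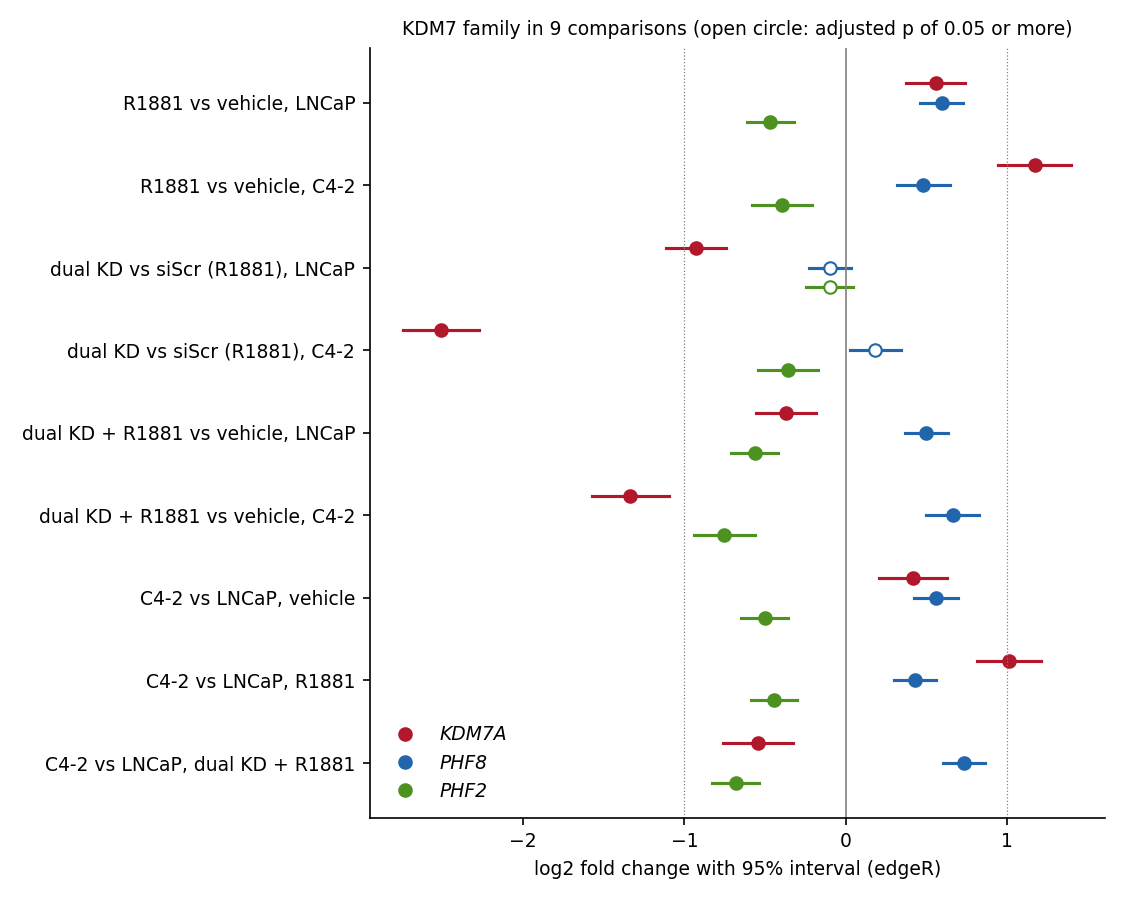
Log2 fold change (x axis) of KDM7A, PHF8 and PHF2 in 9 comparisons (y axis) with 95% intervals from edgeR. Filled circles passed an adjusted p of 0.05, dotted lines mark a 2-fold change, and the largest change is the fall of KDM7A under dual knockdown in C4-2 (log2FC −2.51).

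KDM7A was lowered by dual knockdown in both lines, and further in C4-2. Under dual knockdown it was 27.7, 31.4 and 33.5 CPM in LNCaP and 18.2, 23.9 and 21.6 CPM in C4-2. The mRNA left was 52.5% of the siScr R1881 level in LNCaP (95% interval 46.2% to 59.7%, log2FC −0.93, edgeR adjusted p = 4.66e-05). It was 17.6% in C4-2 (95% interval 14.9% to 20.7%, log2FC −2.51, edgeR adjusted p = 9.39e-09). In LNCaP, 177 genes fell by more than KDM7A, and in C4-2 23 did, where 1.44% of genes fell at least 2-fold and passed. The interaction of line and knockdown was −1.56 (95% interval −1.85 to −1.26, edgeR adjusted p = 6.06e-07). KDM1A also fell further in C4-2 (interaction −2.04, edgeR adjusted p = 2.36e-09). Line and depth of depletion thus cannot be told apart in any difference of the dual knockdown response between the lines. As the level before knockdown was 2.02-fold higher in C4-2, the level after it was compared too. It was lower in C4-2 than in LNCaP, with no overlap and a log2FC of −0.54 (95% interval −0.76 to −0.33, edgeR adjusted p = 1.25e-04).

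Dual knockdown also took KDM7A below its level without androgen. In LNCaP with R1881 and dual knockdown it was 77.3% of the vehicle level (95% interval 67.9% to 88.1%, log2FC −0.37, edgeR adjusted p = 0.00212). In C4-2 it was 39.6% (95% interval 33.5% to 46.7%, log2FC −1.34, edgeR adjusted p = 2.92e-07). No dual knockdown library reached a vehicle library of its line. These comparisons share their vehicle and dual knockdown libraries with those above.

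PHF8, an untargeted paralogue, did not pass the test for dual knockdown in either line. In LNCaP it was 97.9, 101 and 103 CPM under dual knockdown, below the 105 to 114 CPM of siScr cells, at a log2FC of −0.10 (95% interval −0.23 to 0.04, edgeR adjusted p = 0.334). In C4-2 it was 166, 171 and 164 CPM, above the 136 to 157 CPM of siScr cells, at a log2FC of 0.18 (95% interval 0.02 to 0.34, unadjusted p = 0.0277 and edgeR adjusted p = 0.0937). The libraries did not overlap in either line, and lay on opposite sides. The interval allows an increase of up to 1.27-fold in C4-2 and of up to 1.03-fold in LNCaP. The difference between the lines was 0.30 (95% interval 0.12 to 0.49, edgeR adjusted p = 0.0316). This call did not hold in 9 of the 18 fits with 1 library removed. Without C4-2 siScr R1881 replicate 1 the difference was 0.24, at an edgeR adjusted p of 0.107.

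PHF2 was lower under dual knockdown in C4-2. There it was 32.3, 35.5 and 31.3 CPM under dual knockdown against 40.6 to 43.9 CPM in siScr cells, and it fell to 78.0% (log2FC −0.36, SE 0.086, edgeR adjusted p = 0.0076). In LNCaP it was 53.0, 53.6 and 52.3 CPM against 55.5 to 61.0 CPM, with a log2FC of −0.10 (95% interval −0.24 to 0.05, edgeR adjusted p = 0.379). With the GC trend removed, that LNCaP value was −0.22 and passed (edgeR adjusted p = 0.0166). The difference between the lines was −0.24 (95% interval −0.44 to −0.03, edgeR adjusted p = 0.133) and did not pass.

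Under dual knockdown 1 of 3 members passed in LNCaP, where 14.2% of genes passed (5.89% lower), and 2 of 3 in C4-2, where 23.5% passed (10.8% lower). Each of these members was lower. Without C4-2 dual knockdown replicate 1 the log2FC in C4-2 was −2.40 for KDM7A, 0.19 for PHF8 and −0.34 for PHF2, and no call changed. Mitochondrial genes took 8.72% to 8.88% of counts in C4-2 with R1881 and 6.39% to 6.82% under dual knockdown, against 6.32% to 6.78% and 6.11% to 6.43% in LNCaP. The part of this shift in the C4-2 results was not tested. KDM7A was the target, which left PHF2 in C4-2 as the untargeted member that passed. The interaction was passed by KDM7A and PHF8, and by 10.9% of 18684 genes. The libraries of the members did not overlap in any of the 9 comparisons of groups, which for dual knockdown also held for 34.5% of genes in LNCaP and 40.5% in C4-2. Against vehicle it held for 59.8% and 47.3% of genes, and between the lines for 61.9%, 64.8% and 62.8% with vehicle, R1881 and dual knockdown.

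Neither paralogue returned to its vehicle level in the dual knockdown libraries. PHF8 stayed above it, 1.41-fold in LNCaP (log2FC 0.50, edgeR adjusted p = 4.44e-06) and 1.58-fold in C4-2 (log2FC 0.66, edgeR adjusted p = 8.5e-06). PHF2 stayed below it, at 67.6% in LNCaP (log2FC −0.57, edgeR adjusted p = 2.74e-06) and 59.3% in C4-2 (log2FC −0.75, edgeR adjusted p = 9.11e-06). All 3 members passed this comparison in both lines, as did 52.1% of genes in LNCaP and 40.4% in C4-2.

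The lines themselves differed in all 3 genes. With vehicle, C4-2 had more KDM7A than LNCaP (1.33-fold, log2FC 0.42, edgeR adjusted p = 0.00132) and more PHF8 (1.47-fold, log2FC 0.56, edgeR adjusted p = 2.34e-07). It had less PHF2 (70.6% of LNCaP, log2FC −0.50, edgeR adjusted p = 2.6e-06). With R1881 the log2FC was 1.01 for KDM7A, 0.43 for PHF8 and −0.44 for PHF2, and KDM7A was 2.02-fold higher. Under dual knockdown PHF8 was 1.66-fold higher in C4-2 and PHF2 was at 62.3% of LNCaP. The members passed all 9 of these tests, against 58.9%, 58.3% and 57.6% of genes with vehicle, R1881 and dual knockdown. Line and culture cannot be told apart here. With counts thinned to the smallest library, KDM7A with vehicle differed by 0.25 and no longer passed (edgeR adjusted p = 0.0845).

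In the order of levels, KDM7A ran from C4-2 dual knockdown (21.2 CPM) through LNCaP dual knockdown (30.9), LNCaP vehicle (40.0), C4-2 vehicle (53.3) and LNCaP R1881 (59.8) to C4-2 R1881 (120.5 CPM). Of neighbours in that order, only C4-2 vehicle and LNCaP R1881 overlapped. Of the C4-2 vehicle libraries, 1 (56.8 CPM) lay above the lowest LNCaP R1881 library (55.0 CPM). PHF8 ran from LNCaP vehicle (71.2 CPM) through LNCaP dual knockdown (101), C4-2 vehicle (105), LNCaP R1881 (109) and C4-2 R1881 (147) to C4-2 dual knockdown (167 CPM). C4-2 vehicle and LNCaP R1881 again overlapped. PHF2 ran from C4-2 dual knockdown (33.0 CPM) through C4-2 R1881 (42.2), LNCaP dual knockdown (53.0), C4-2 vehicle (55.2) and LNCaP R1881 (57.4) to LNCaP vehicle (78.6 CPM). C4-2 vehicle overlapped both of its neighbours.

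LNCaP vehicle had the least PHF8 and the most PHF2, and C4-2 dual knockdown the reverse. Not every group followed this, as LNCaP R1881 lay above LNCaP dual knockdown in both genes. Pearson's r of log2 CPM was −0.978 over the 6 group means, which share a line or a treatment with each other, while within groups, with each group's mean removed, r was 0.221 over the 18 libraries. KDM7A had r of 0.043 with PHF8 and 0.136 with PHF2 over the 6 means. These values are descriptions of 6 means.

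**Figure D3:**
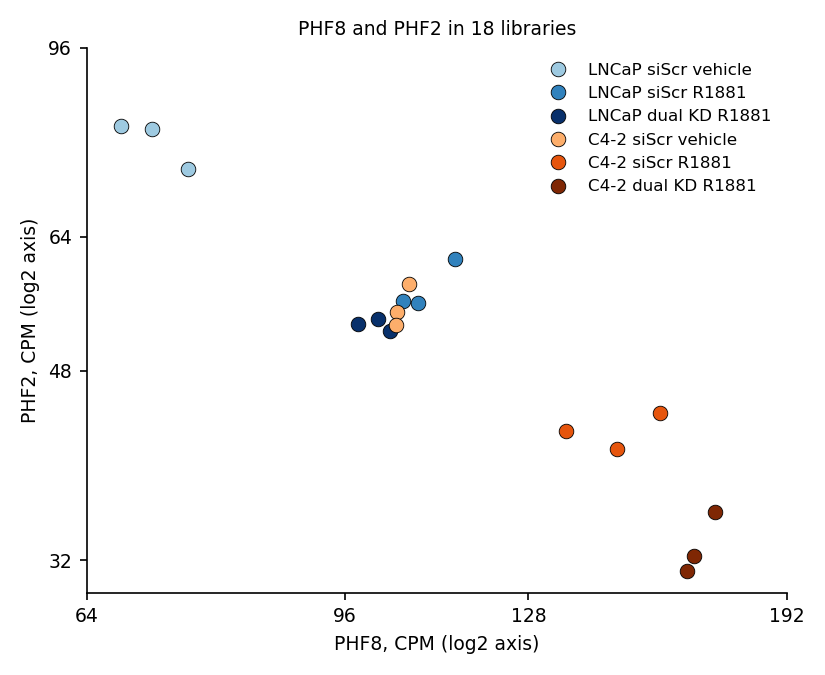
PHF2 (y axis) against PHF8 (x axis), both in CPM on log2 axes, with 1 point per library and colours for the 6 groups. LNCaP vehicle libraries lie at the upper left (PHF8 67.6 to 75.1 CPM, PHF2 73.9 to 81.2 CPM) and C4-2 dual knockdown libraries at the lower right (PHF8 164 to 171 CPM, PHF2 31.3 to 35.5 CPM).

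Over the 18 libraries and 14948 genes with at least 1 CPM, the patterns most like KDM7A were those of NELFCD, a subunit of the negative elongation factor (r = 0.936), XPNPEP3, an aminopeptidase (r = 0.922), and DDX23, a splicing helicase (r = 0.90). Most like PHF8 were GNB4, a G protein subunit (r = 0.988), CROT, a carnitine acyltransferase (r = 0.982), and KLF5, a transcription factor (r = 0.981). Most like PHF2 were SMAD3, the transducer of TGF-beta signals (r = 0.984), CPNE3 (r = 0.978) and SLC6A11, a GABA transporter (r = 0.977). Over the 6 group means the most alike were XPNPEP3, ZNF75D and CHRAC1 for KDM7A (r = 0.992, 0.968 and 0.967), PIGK, PSMD1 and UBE2F for PHF8 (r = 0.998, 0.997 and 0.997) and HPS4, SMAD3 and PARD6G for PHF2 (r = 0.998, 0.997 and 0.996). XPNPEP3 and SMAD3 were the genes named by both measures. Each r over libraries rests on 6 groups, since replicates share their group's level.

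The balance among the 3 genes was compared per length, as CPM per kb of exon. With vehicle, LNCaP held 4.24 ± 0.339 CPM per kb of KDM7A, 7.89 ± 0.417 of PHF8 and 14.1 ± 0.726 of PHF2 (SD, n = 3). PHF2 was thus the most abundant member by length in that group, at 53.8% ± 2.69 of the sum. With R1881, PHF8 led in LNCaP at 42.1% ± 1.11 and PHF2 held 35.9% ± 1.17. Under dual knockdown PHF8 held 46.6% ± 0.268 there and PHF2 39.7% ± 1.16. In C4-2, PHF8 led in each group, at 42.8% ± 0.881 with vehicle, 44.4% ± 0.806 with R1881 and 69.4% ± 1.21 under dual knockdown. The change of the PHF8 share with R1881 in C4-2, 1.62 percentage points, was −1.76 without length scaling. The share of KDM7A was 16.2% ± 1.31 with vehicle, 22.1% ± 2.17 with R1881 and 13.7% ± 0.995 under dual knockdown in LNCaP. In C4-2 it was 20.8% ± 0.625, 34.9% ± 0.584 and 8.41% ± 0.903. KDM7A shares did not overlap between groups of a line or between the lines within a treatment (2-sided exact permutation test, p = 0.1 for each, the smallest possible).

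The sum over the family in CPM per kb rose with R1881 from 26.3 ± 0.0398 to 28.7 ± 0.646 in LNCaP and from 27.2 ± 0.882 to 36.6 ± 2.43 in C4-2 (SD, n = 3). Under dual knockdown it was 24.0 ± 0.558 in LNCaP and 26.7 ± 1.05 in C4-2. The sum under dual knockdown lay below that of siScr cells with R1881 in both lines, without overlap (2-sided exact permutation test, p = 0.1 for each). The comparisons of this sum with vehicle rest on the length scaling, and the sum was not tested without it. With that scaling, the dual knockdown sum lay below the vehicle sum in LNCaP, also without overlap. In C4-2 it overlapped the vehicle sum, with a difference of −0.459 CPM per kb (2-sided exact permutation test, p = 0.5). With 1 library left out this difference ran from −1.06, without dual knockdown replicate 2, to 0.0499, without vehicle replicate 2. It was −0.160 and −0.152 without dual knockdown replicates 1 and 3, and −0.688 and −0.738 without vehicle replicates 1 and 3. These C4-2 groups thus overlapped in their sum but not in any member, as KDM7A and PHF2 were lower and PHF8 higher under dual knockdown with R1881 than with vehicle.

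**Figure D4:**
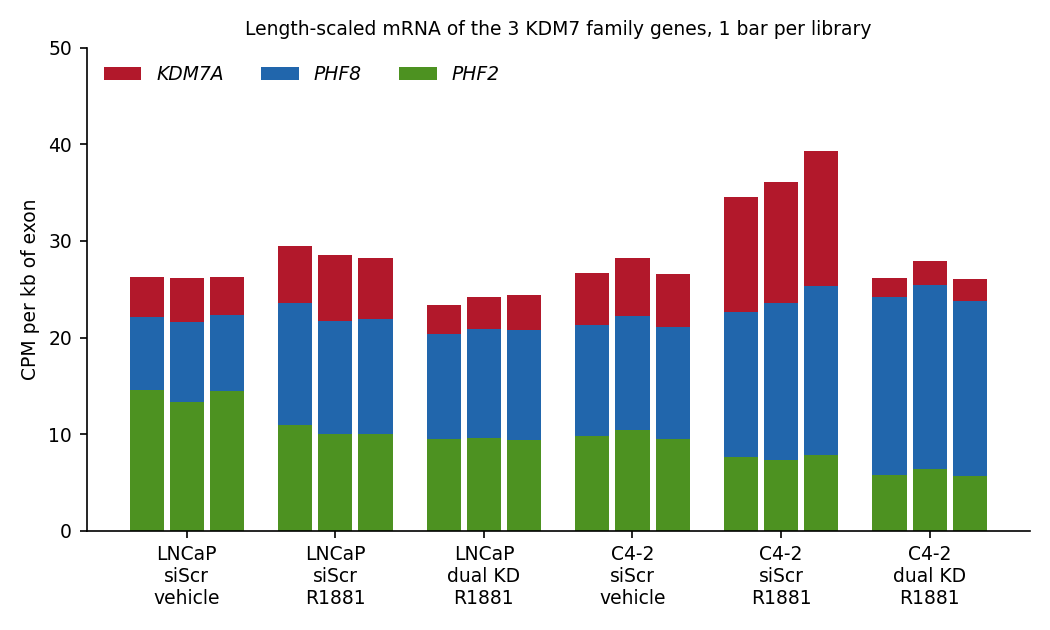
Stacked CPM per kb of exon (y axis) of PHF2, PHF8 and KDM7A, with 1 bar for each of 18 libraries in 6 groups (x axis). The sum is highest in C4-2 with R1881 (34.5 to 39.3 CPM per kb), and in C4-2 under dual knockdown PHF8 makes up 69.4% of it.

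Genes beside the members showed which changes were shared along the chromosome. KDM7A-DT (ENSG00000260231, chr7:140177261-140179640) rose with R1881 by a log2FC of 0.70 in both lines (edgeR adjusted p = 7.67e-04 in LNCaP and 9.24e-04 in C4-2), from 5.69 to 9.28 CPM and from 14.3 to 22.5 CPM. KDM7A-DT and KDM7A, which start from the stretch shown above, thus both rose in both lines. The difference between the lines in this response was −0.02 for KDM7A-DT (95% interval −0.40 to 0.37, edgeR adjusted p = 0.976), against 0.60 for KDM7A, and the 2 genes were not tested against each other. Under dual knockdown KDM7A-DT fell in C4-2 from 22.5 to 12.7 CPM (log2FC −0.83, edgeR adjusted p = 3.27e-04), where its level overlapped that with vehicle. In LNCaP it was at 7.92 CPM (log2FC −0.21, 95% interval −0.50 to 0.09, edgeR adjusted p = 0.354). This difference between the lines passed (−0.60, edgeR adjusted p = 0.0389). Whether the KDM7A pool acts on KDM7A-DT was not tested.

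TBXAS1, thromboxane A synthase, lies 64.4 kb from KDM7A and rose with R1881 by a log2FC of 1.00 in LNCaP (edgeR adjusted p = 3.83e-05) and 1.00 in C4-2 (edgeR adjusted p = 3.7e-05). Under dual knockdown it had a log2FC of 0.01 in LNCaP (95% interval −0.29 to 0.31) and 0.06 in C4-2 (95% interval −0.19 to 0.31), and did not pass. PARP12, an ADP-ribosyltransferase 21.0 kb from KDM7A, did not pass for R1881 in either line (log2FC 0.18 and −0.09). It rose under dual knockdown in C4-2 (log2FC 0.31, edgeR adjusted p = 0.00777). Of the 4 genes with at least 100 counts in this stretch, KDM7A, KDM7A-DT and TBXAS1 thus passed for R1881 in both lines, and PARP12, which lies between TBXAS1 and KDM7A, in neither.

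PHF8 and PHF2 each lie next to a member of the FAM120 family. FAM120C, 19.4 kb from PHF8, fell with R1881 (log2FC −0.33 in LNCaP, edgeR adjusted p = 0.00416, and −0.40 in C4-2, edgeR adjusted p = 0.00437), while PHF8 rose. Under dual knockdown it fell in C4-2 (log2FC −0.36, edgeR adjusted p = 0.0105). FAM120A, 10.3 kb from PHF2, did not pass for R1881, with a log2FC of −0.02 in LNCaP (95% interval −0.14 to 0.10) and −0.06 in C4-2 (95% interval −0.22 to 0.09). These intervals do not reach the values of PHF2, −0.47 and −0.39.

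**Figure D5:**
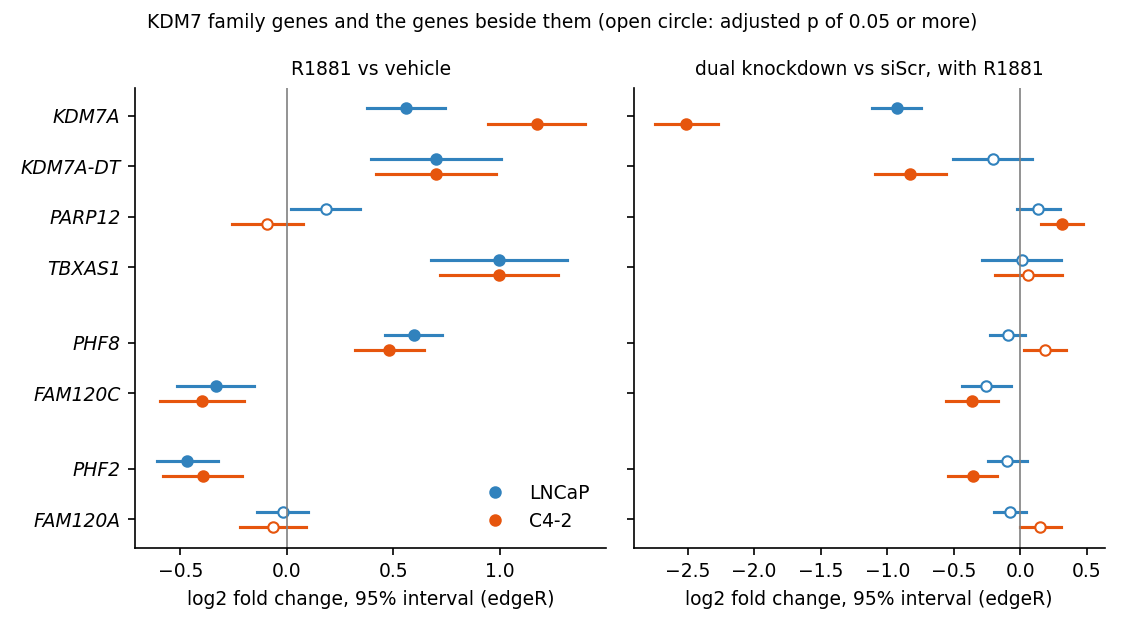
Log2 fold change (x axis) with 95% intervals for R1881 (left) and dual knockdown (right) in LNCaP and C4-2, for each KDM7 family gene and the genes within 100 kb with at least 100 counts (y axis). Filled circles passed an adjusted p of 0.05. KDM7A-DT and TBXAS1 rose with R1881 as KDM7A did, and FAM120C fell where PHF8 rose.

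Among 18 tested genes of a list of other lysine demethylases, 3 rose and 9 fell with R1881 in LNCaP (23.5% and 23.2% of all genes), at a median log2FC of −0.23 beside −0.04 over all genes. KDM6B (log2FC −0.93) and KDM6A (−0.80), which act on lysine 27 of H3, fell furthest, and KDM4D fell too (−0.63). In C4-2, 3 rose and 2 fell (17.1% and 15.7% of all genes, median 0.06, −0.02 over all genes), with KDM6B at −0.46, KDM4B at 0.43 and KDM3A at 0.39. KDM7A in C4-2 rose by more than any of them. Under dual knockdown, besides the targeted KDM1A, 1 rose and 3 fell in LNCaP, where 8.27% of all genes rose and 5.89% fell, JMJD1C (−0.42) and KDM4B (0.25) among them. In C4-2, where 12.7% rose and 10.8% fell, 1 rose and 2 fell, KDM5B (−0.58) and KDM6A (0.40) among them. The median was −0.10 in LNCaP (0.00 over all genes) and −0.16 in C4-2 (0.01 over all genes).

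The list of partners and regulators of PHF8 and PHF2 moved both ways with R1881, 3 higher and 5 lower of 11 in LNCaP, where 46.6% of all genes passed, and the same numbers of 10 in C4-2, where 32.8% passed. CUL4B, a ubiquitin ligase scaffold, rose in LNCaP (log2FC 1.05), and E2F1, a cell cycle factor that PHF8 binds, fell in C4-2 (−0.68). Under dual knockdown E2F1 rose in both lines (0.47 in LNCaP and 0.45 in C4-2, edgeR adjusted p = 0.013 and 0.026). CDC20, the activator of the ligase that degrades PHF8, also rose in both (0.31 and 0.58, edgeR adjusted p = 0.0425 and 6.23e-04). The list had 3 higher and 2 lower in LNCaP (14.2% of all genes passed, median −0.01) and 2 higher and 1 lower in C4-2 (23.5% passed, median −0.02).

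Of 24 methyltransferases of the marks that the family removes or reads and subunits of their complexes, 15 fell and 2 rose with R1881 in LNCaP (23.2% and 23.5% of all genes, median log2FC −0.24). In C4-2, 7 fell and 3 rose (15.7% and 17.1% of all genes, median −0.13). KMT5C, which di- and trimethylates lysine 20 of H4, fell in both lines (−0.98 and −0.92). KMT2C and KMT2B, which methylate lysine 4 of H3, fell in LNCaP (−0.64 and −0.63), and SUV39H1, which trimethylates lysine 9, fell in C4-2 (−0.52). DPY30, among the 3 that rose in C4-2, had a log2FC of 0.57. Under dual knockdown 4 fell and 1 rose in LNCaP (14.2% of all genes passed), and 3 fell in C4-2 (23.5% passed), where WDR5, a shared subunit of the lysine 4 complexes, had a log2FC of −0.48. Of 16 readers of these marks, 4 rose and 7 fell with R1881 in LNCaP (23.5% and 23.2% of all genes), and 3 rose and 1 fell in C4-2 (17.1% and 15.7%). UHRF1 fell there with R1881 (−0.88), while ING4 (0.75) and ING2 (0.47) rose. Under dual knockdown 1 rose and 3 fell in LNCaP (8.27% and 5.89% of all genes), and 2 rose and 5 fell in C4-2 (12.7% and 10.8%). CBX5, the heterochromatin protein HP1-alpha, fell in both lines (−0.29 and −0.60, edgeR adjusted p = 0.00673 and 8.63e-04). UHRF1 rose in LNCaP (0.43) and PHF19 in C4-2 (0.66).

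A further list of 16 genes was drawn around 2-oxoglutarate, the co-substrate of the KDM7 family. It holds enzymes that make or use 2-oxoglutarate, and also SDHA, SDHB and SDHD, subunits of succinate dehydrogenase, which does neither. Of these 16 genes, 13 rose with R1881 in LNCaP and no other passed (23.5% of all genes rose, median log2FC 0.24). In C4-2, 10 rose and 1 fell (17.1% and 15.7% of all genes, median 0.23). GLUD1, glutamate dehydrogenase, rose in both lines (1.56 and 0.97), and IDH1, cytosolic isocitrate dehydrogenase, rose by 1.23 in LNCaP. IDH2, the mitochondrial form, was the gene that fell in C4-2 (−0.54). Under dual knockdown IDH2 was the gene that passed in LNCaP, at 0.22 (8.27% of all genes rose, median 0.03), and 2 rose and 4 fell in C4-2 (12.7% and 10.8% of all genes, median 0.01). There GLUD1 rose again (0.58, edgeR adjusted p = 9.88e-05) and IDH2 fell again (−0.51, edgeR adjusted p = 5.84e-04). The lists are described by these counts only and were given no test as sets.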

How the data were processed

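The deposited files hold unnormalised counts, in whole read pairs for each gene. Per the file headers and the study's methods, the authors sequenced poly(A) libraries in pairs, filtered at a phred score over 30, used TrimGalore for trimming and STAR for alignment to GRCh38, and counted with FeatureCounts 1.5.0-p1 on Ensembl 83, without strand and without reads that map to several places. Reads shared with a near-identical copy of a gene were thus not counted. The vehicle is DMSO in the RNA Seq methods and ethanol in the culture methods.

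From these counts, edgeR 4.0.16 (R 4.3.3) gave TMM factors, filterByExpr (minimum count 10, minimum total 15) and the quasi-likelihood F-test, 2-sided, with p adjusted by Benjamini-Hochberg, over 9 libraries and 3 groups per line (17162 genes in LNCaP, 16965 in C4-2). Comparisons between lines and interactions used 18 libraries and 6 groups (18684 genes). CPM use effective library sizes over all 18 libraries. Intervals are 95%. Totals of 3182604 to 20154243 gave 180 or more counts of each member in every library. The fits were tested on simulated data, each with 200 changed genes. At a log2FC of 0.5, 97 to 122 passed with the right sign between groups, and 33 in the R1881 interaction. At a log2FC of 1 these numbers were 198 to 200 and 184. The simulation gave every gene the same dispersion, had no library that stood apart from its group, and changed only genes with higher counts. Its numbers are thus not the power of these data.

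Named genes were the members, KDM1A, genes within 100 kb, up to 3 genes per list and comparison with the largest passed log2FC at a mean of 1 CPM, the 3 genes most alike in pattern, and 3 androgen-induced genes. Some genes of the lists are not reported here. The members and lists were chosen with earlier results of these data known. Of 17 mark readers 16 were found. Same-numbered replicates did not pair (correlation of deviations −0.092 to 0.159, over 0.1 in 2 of 18 pairs). Promoter windows are from RefSeq (GRCh38.p14) and all 3 members matched. The alternatives were RLE and upper quartile factors, DESeq2 1.42.0, limma-voom (limma 3.58.1) for interactions, no filter on low counts, a minimum of 10 counts per library, only the groups compared, a replicate block, counts thinned to the smallest library, each library left out, no length scaling, and the GC trend.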

Additional observations from a re-analysis of the deposited data

Results flagged for a closer look

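The response of KDM7A to R1881 differed between the lines by a test of the difference itself, with a log2FC larger in C4-2 by 0.60 (edgeR interaction, adjusted p = 0.00488). The response of KDM7A to dual knockdown differed by −1.56 (edgeR interaction, adjusted p = 6.06e-07). The response of PHF8 to dual knockdown differed by 0.30 (edgeR interaction, adjusted p = 0.0316), with C4-2 values above and LNCaP values below their siScr R1881 libraries. This PHF8 call was lost in 12 of 27 alternatives. Both KDM7A and KDM1A were depleted further in C4-2, so line and depth of depletion cannot be told apart in the knockdown differences.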

How the results depend on the processing

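Of 729 alternative values for 33 log2FC of the members, 715 kept their direction or lack of a call and their side of the threshold, and 0 called values turned. The PHF8 interaction with knockdown lost its call with upper quartile factors (0.29), with no filter (0.29) and after thinning all libraries to the total of the smallest (0.23). Over fits that each left out 1 library it ranged from 0.24 to 0.36. KDM7A between the lines with vehicle was 0.25 after thinning and no longer passed. PHF2 under dual knockdown in LNCaP was −0.22 and passed once the GC trend was removed, and 0.05, the opposite sign, after thinning. Without length scaling, the change of the PHF8 share turned from 1.62 to −1.76 percentage points for R1881 in C4-2 and from 2.36 to −0.762 between the lines with R1881. The KDM7A share then moved from −26.45 to −29.35 for dual knockdown in C4-2, from −2.50 to −4.35 and from −12.4 to −15.4 for dual knockdown against vehicle in LNCaP and C4-2, and from −5.24 to −7.14 between the lines under dual knockdown. The family sum was computed with length scaling only. Under dual knockdown against vehicle in C4-2 it differed by −0.459 CPM per kb, and this ran from −1.06 to 0.0499 with 1 library left out. The cause was not tested.

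Numbers of genes that passed moved by over 1.5 times in some settings. Thinning gave 4931 in place of 8002 for R1881 in LNCaP, 3518 in place of 5571 in C4-2, 5875 in place of 8945 for dual knockdown against vehicle in LNCaP, 2180 in place of 3983 for dual knockdown in C4-2, 1300 in place of 2615 for the R1881 interaction and 782 in place of 2028 for the knockdown interaction. Dual knockdown in LNCaP gave 2431 genes, 1140 after thinning, 1155 without the GC trend, and 839 to 2936 with 1 library left out (918, 839, 840 and 957 without dual knockdown replicate 1, siScr R1881 replicate 2, dual knockdown replicate 2 and siScr R1881 replicate 3). Leaving out 1 library gave 2482 to 4668 genes for dual knockdown in C4-2 (lowest without siScr R1881 replicate 3) and 1272 to 3538 for the knockdown interaction (3538, 1283 and 1272 without C4-2 dual knockdown replicates 1, 2 and 3, and 1342 without LNCaP dual knockdown replicate 2). The replicate block changed no call of a member (KDM7A for R1881 in C4-2, 1.16), and genes that passed for dual knockdown in C4-2 were 4322 with the block.

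Depth limits C4-2 vehicle replicate 3 most, with 180 to 357 counts per member.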
